A study of Saccharomyces cerevisiae with 16 samples.

Results

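The 34 genes described here encode the enzymes of Saccharomyces cerevisiae glycolysis below the hexokinase step, the pyruvate decarboxylases, the alcohol and aldehyde dehydrogenases, the acetyl-CoA synthetases, the pyruvate carboxylases, and FBP1 and PCK1 of gluconeogenesis. They were chosen by systematic name among the 6174 features of the deposited table, and all 34 matched a gene name and had a value on at least 1 array. By role they comprise 15 genes of lower glycolysis, 3 pyruvate decarboxylases, 5 alcohol dehydrogenases, 5 aldehyde dehydrogenases, 2 acetyl-CoA synthetases, 2 pyruvate carboxylases and 2 gluconeogenic genes. RNA was compared on 16 arrays of 2 colours, each of which paired cells exposed to 20 mM KOH (pH 8) with cells of one strain exposed equally long to 20 mM KCl. The 4 groups were the wild type W303-1A at 10 min, the msn2 msn4 mutant at 10 min, the wild type at 30 min and the mutant at 30 min, with 4 arrays each. The mutant, MCY5278, carries msn2::kanMX4 and msn4::hphMX4 and so lacks the transcription factors Msn2 and Msn4. All cultures grew in rich YPD medium at 28 °C to an A660 of 0.6 before the salt was added, so the KCl arm gives the same potassium without the alkaline shift. The design addresses how the response to alkaline pH differs with and without Msn2 and Msn4.

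In yeast on glucose, glycolysis turns sugar into pyruvate, pyruvate decarboxylase turns pyruvate into acetaldehyde, and alcohol dehydrogenase reduces acetaldehyde to ethanol. Acetaldehyde can also be oxidised to acetate by aldehyde dehydrogenases and activated to acetyl-CoA by acetyl-CoA synthetases, while pyruvate carboxylase makes oxaloacetate. Many of these steps have isoenzymes, of which the fermentative form is abundant on glucose and another form is repressed by glucose or induced by stress. Msn2 and Msn4 are zinc-finger activators that bind the stress response element in promoters of many stress-induced genes.

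Each value is a deposited log ratio, read as log2 of KOH over KCl, so a value of 1 stands for a doubling. Base and direction are likely but not stated in the sources used here. The highest deposited value, 16.268, stood on array 1 of the wild type at 10 min, and the highest on any other array was 8.087. Arrays of opposite dye correlated with r from 0.542 to 0.865 across features within a group, so all were taken to run the same way. Each array was centred on its median, which ran from -0.285 to 0.2615 as deposited. Between 2073 and 5443 features had a value on an array, fewest at 10 min, and between 25 and 34 of the 34 genes did. The labels state 2 biological replicates per condition without saying which arrays share them. With 4 arrays per group, some arrays of every group then share a replicate. The 16 arrays were treated as units, so the p-values are too small. MSN2 had a value on 8 of 8 mutant arrays and MSN4 on 5 of 8. Because each array compares a strain with itself, these ratios do not check the deletions.

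Errors after ± are standard errors of a linear model fitted with limma to all arrays, and adjusted p-values are Benjamini-Hochberg values over all features tested. The threshold was an adjusted p of 0.05. Genes were tested where at least 3 arrays of each compared group, covering both orientations of the dyes, held a value. Where a gene had values on only 2 arrays of a group, 1 of each orientation, a fit with a minimum of 2 arrays was also made. This minimum was chosen after seeing the data. Its result is given where it called the gene. Where it did not, its result is given for FBP1 between strains, for ADH4 over time in the wild type, and for ACS1 and PYK2 over time in the mutant. Group estimates of the chosen enzyme genes rest on 4 arrays unless a smaller number is given. Those of the neighbouring pathway genes listed further below can rest on 3 arrays, and their array numbers are not given. In whole cultures, a change in part of the cells and a smaller change in every cell cannot be told apart. Near-identical genes, such as TDH2 and TDH3, ENO1 and ENO2, ADH1 and ADH2, ALD2 and ALD3, or PYC1 and PYC2, may not be fully separated by their probes. PYC1 and PYC2 did differ by at least 1.33 on all 12 arrays with both.

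KOH raised some genes around acetaldehyde, acetate and oxaloacetate but not others, such as ADH1, and most enzymes of lower glycolysis did not pass. Of all features tested, 18.6% to 22% rose and 17.9% to 20.9% fell in a group. PYC1 and ALD4 rose in all 4 groups, by 1.99 to 2.47 and by 1.55 to 2.63 on the log2 scale. PYK2, ADH5 and ALD6 rose in some groups, and PDC5 and PDC6 fell at 30 min in both strains. No gene of the 34 fell in all 4 groups.

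At 10 min in the wild type, 7 of the 27 genes tested rose and 2 fell, against 21.8% and 20.9% of all 2670 features tested. At 10 min in the mutant, 4 rose and 4 fell of 27 tested, against 18.6% and 17.9% of 3042 features. At 30 min in the wild type, 8 rose and 3 fell of 32 tested, against 19.2% and 18.8% of 4288. At 30 min in the mutant, 14 rose and 4 fell of 31 tested, against 22% and 19.1% of 4234. The shares of the genes were thus near or below the background in the first 3 groups, and in the mutant at 30 min the share that rose was above it. The median change of the genes tested was -0.09, -0.23, -0.02 and 0.29 in these groups, beside -0.04, 0.01, 0.02 and 0.02 over all features tested. Of the 34 genes, 25 were tested in all 8 comparisons, 22 passed in at least 1, and ADH2 and PCK1 were tested in none. When opposite-dye arrays were averaged into 2 replicates per group, 8 of the 9, 5 of the 8, 8 of the 11 and 9 of the 18 calls in these groups held in all 16 pairings. ENO2 in the mutant at 10 min and ALD2 in the mutant at 30 min passed in none of the pairings, and PGK1 and GPM2 in the mutant at 30 min in 2 of 16 each.

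**Figure D1:**
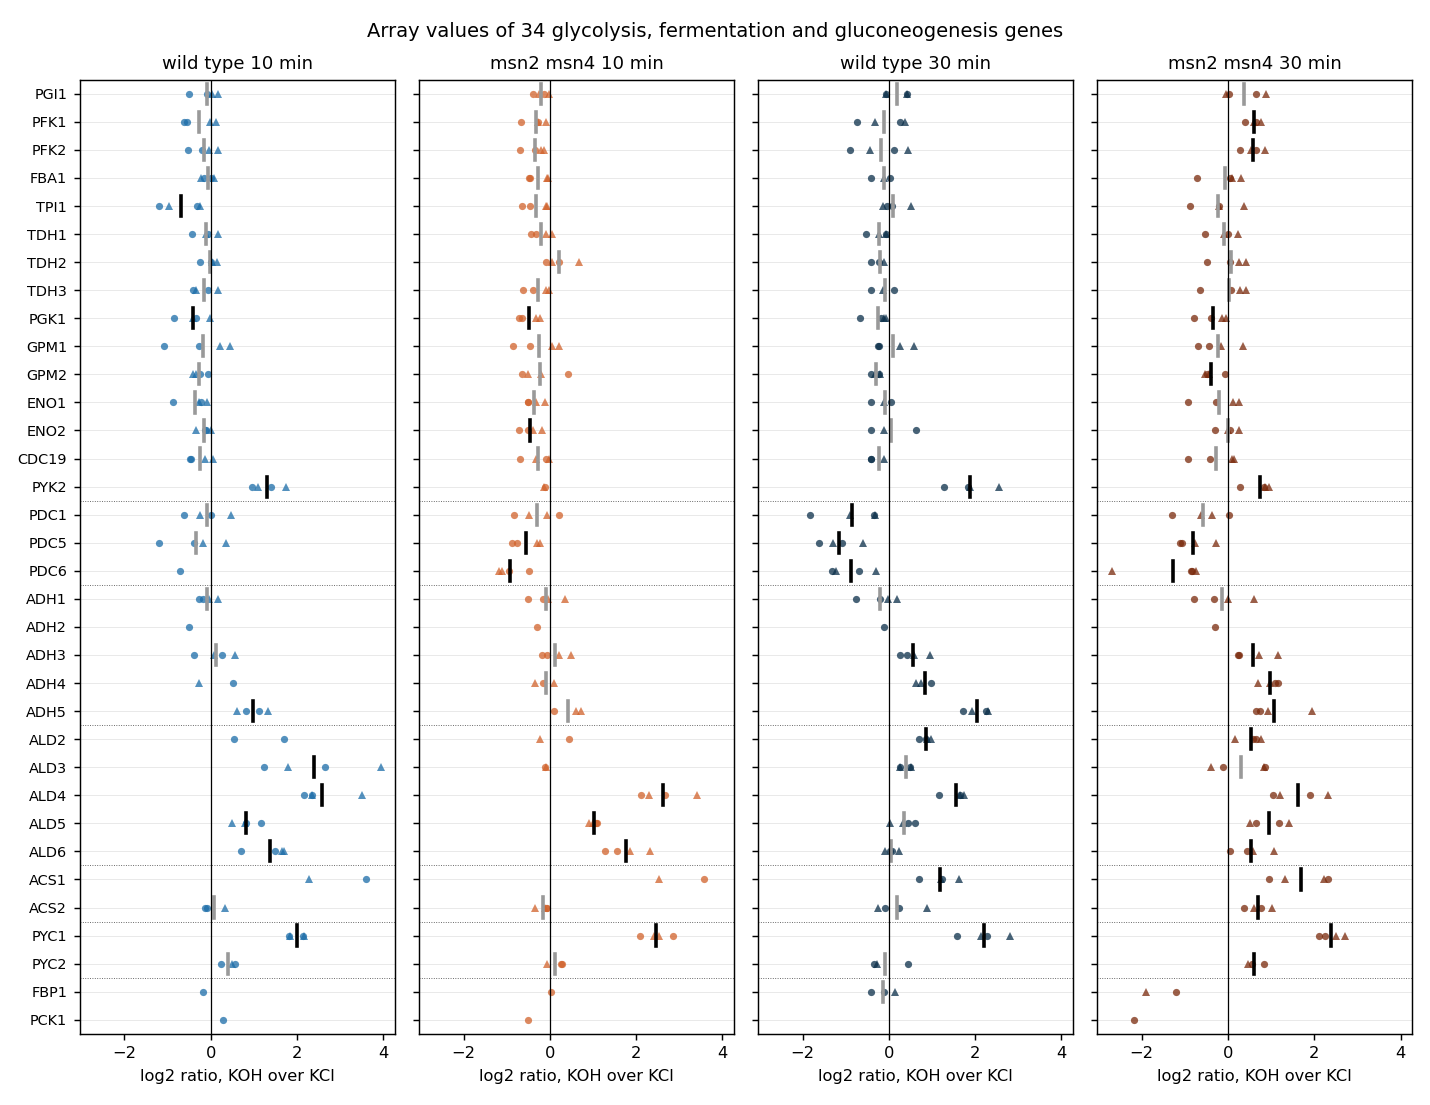
Array values of the 34 genes, one row per gene ordered by role and one panel per group. The horizontal axis is the centred log2 ratio of KOH over KCl; circles are arrays with the KOH RNA in Cy3, triangles arrays with it in Cy5. Vertical bars are fitted changes, black where the gene passed and grey where it was tested and did not. Most genes of lower glycolysis lie close to 0, and PYC1 and ALD4 lie above 1 on every array.

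Few genes of lower glycolysis passed. Of 15, 14, 15 and 15 tested in the wild type at 10 min, the mutant at 10 min, the wild type at 30 min and the mutant at 30 min, 1, 0, 1 and 3 rose, against 21.8%, 18.6%, 19.2% and 22% of all features tested. In the same order 2, 2, 0 and 2 fell, against 20.9%, 17.9%, 18.8% and 19.1%. Leaving PYK2 aside, TPI1 and PGK1 fell in wild-type cells at 10 min, PGK1 and ENO2 fell in mutant cells at 10 min, and none passed in the wild type at 30 min. PFK1 and PFK2 rose and PGK1 and GPM2 fell in mutant cells at 30 min. The median fitted change of the lower glycolysis genes tested was -0.16, -0.28, -0.11 and -0.07. PGI1 (YBR196C), FBA1 (YKL060C), TDH1 (YJL052W), TDH2 (YJR009C), TDH3 (YGR192C), GPM1 (YKL152C), ENO1 (YGR254W) and CDC19 (YAL038W) passed in no comparison. Of these, PGI1 passed in the mutant at 30 min when arrays were centred on the features measured on all 16 arrays (0.40, adjusted p = 0.0164) or without array 2 of that group (0.55, adjusted p = 0.0165).

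TPI1 (YDR050C), triose phosphate isomerase, stood at -0.32, -0.26, -0.96 and -1.20 on arrays 1 to 4 of the wild type at 10 min. All 4 values lay below 0, and the fitted change was -0.68 ± 0.17 (adjusted p = 0.0036). Mutant arrays at 10 min gave -0.45, -0.09, -0.07 and -0.66 for TPI1, with a fitted change of -0.32 ± 0.17 that did not pass. At 30 min neither strain passed: the wild type gave -0.04, 0.52, -0.14 and 0.08, and the mutant -0.89, -0.20, 0.36 and -0.22. Values therefore lay on both sides of 0 at the later time. With the 3 arrays of the larger slide-number series in each group, the call in the wild type at 10 min was lost (adjusted p = 0.052).

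PGK1 (YCR012W), phosphoglycerate kinase, gave the lowest wild-type values at 10 min on arrays 3 and 4. Its 4 values were -0.33, -0.01, -0.42 and -0.86, and the fitted change was -0.41 ± 0.12 (adjusted p = 0.0115). Without array 3 or without array 4 the call was lost, with -0.33 and -0.31 and adjusted p = 0.0828 and 0.083. Mutant values at 10 min were -0.64, -0.31, -0.23 and -0.72, all below 0, and the change was -0.47 ± 0.12 (adjusted p = 0.0052). Wild-type PGK1 at 30 min stood at -0.67, -0.07, -0.12 and -0.19 and did not pass. Mutant PGK1 at 30 min stood at -0.78, -0.13, -0.05 and -0.39, a change of -0.34 ± 0.12 (adjusted p = 0.036) that was lost without array 1, 2 or 3 of that group (-0.37 to -0.25, adjusted p from 0.06 to 0.16). It was also lost in 5 of 11 other settings, namely without a dye term, with values as deposited, with quantile normalization, in the larger series and with the compared groups alone (-0.39 to -0.31, adjusted p from 0.0548 to 0.206).

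GPM2 (YDL021W), a homologue of the phosphoglycerate mutase GPM1, and ENO2 (YHR174W), an enolase, each passed in 1 group. GPM2 in mutant cells at 30 min stood at -0.06, -0.45, -0.54 and -0.50, a change of -0.39 ± 0.14 (adjusted p = 0.042). That call was lost without any of 5 arrays, namely arrays 2, 3 or 4 of that group, array 2 of the mutant at 10 min and array 1 of the wild type at 30 min, with adjusted p from 0.0503 to 0.144, and in 5 of 11 other settings (adjusted p from 0.0717 to 0.163). ENO2 in mutant cells at 10 min stood at -0.51, -0.18, -0.39 and -0.72, a change of -0.45 ± 0.15 (adjusted p = 0.0293). It was lost without array 1, 3 or 4 (-0.45 to -0.37, adjusted p from 0.0668 to 0.13). Its near copy ENO1 stood at -0.50, -0.11, -0.33 and -0.50 in the same group and did not pass (-0.36 ± 0.15, adjusted p = 0.0634). ENO1 did pass there in 5 alternatives, among them quantile normalization (-0.42, adjusted p = 0.0303) and values as deposited (-0.44, adjusted p = 0.034). GPM1 gave -0.28, 0.21, 0.44 and -1.08 and then -0.45, 0.05, 0.22 and -0.84 in the wild type and the mutant at 10 min, and -0.26, 0.26, 0.59 and -0.24 and then -0.68, -0.17, 0.34 and -0.43 at 30 min. GPM1 lay on both sides of 0 in every group and was negative on every array with the KOH RNA in Cy3. GPM2 gave -0.07, -0.33, -0.41 and -0.24 in the wild type and 0.43, -0.20, -0.52 and -0.65 in the mutant at 10 min, and -0.24, -0.20, -0.33 and -0.40 in the wild type at 30 min. Over the 15 arrays with both enolases, ENO1 minus ENO2 ranged from -0.76 to 0.22. At 10 min in the wild type ENO1 gave -0.22, -0.09, -0.26 and -0.86 (-0.36 ± 0.15, adjusted p = 0.0589) and ENO2 -0.14, -0.00, -0.35 and -0.10. At 30 min in the mutant ENO1 gave -0.92, 0.25, 0.11 and -0.28 and ENO2 -0.30, 0.26, 0.01 and 0.05. Neither enolase passed in these groups.

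PFK1 (YGR240C) and PFK2 (YMR205C) encode the alpha and beta subunits of phosphofructokinase, which commits sugar to glycolysis. Mutant cells at 30 min had PFK1 at 0.40, 0.60, 0.76 and 0.64 and PFK2 at 0.27, 0.53, 0.86 and 0.64. Both rose in that group, by 0.60 ± 0.15 (adjusted p = 0.00601) and 0.57 ± 0.16 (adjusted p = 0.0106). Wild-type cells at 30 min had PFK1 at -0.74, -0.33, 0.37 and 0.27, and PFK2 at -0.91, -0.43, 0.44 and 0.11. Arrays 1 and 2 were low and arrays 3 and 4 high for both genes, and neither passed. The pair differed by at most 0.339 on any of the 16 arrays. At 10 min PFK1 gave -0.55, -0.01, 0.13 and -0.61 in the wild type and -0.28, -0.08, -0.27 and -0.66 in the mutant. PFK2 gave -0.21, -0.04, 0.18 and -0.53, and -0.34, -0.21, -0.13 and -0.68. Neither passed at 10 min. Without array 4 of the mutant at 30 min, the PFK2 call was lost (0.48, adjusted p = 0.0522). It was also lost in the larger slide-number series (0.48, adjusted p = 0.0656). With the compared groups alone both PFK1 (0.60, adjusted p = 0.051) and PFK2 (0.57, adjusted p = 0.0666) were lost. The PFK1 and PFK2 calls in that group held in 10 and 8 of 16 pairings of opposite-dye arrays.

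Some lower glycolysis values in the wild type at 30 min were shared across genes. On array 1, FBA1 (aldolase), TDH2, TDH3 (glyceraldehyde 3-phosphate dehydrogenases), ENO1, ENO2 and CDC19 all had a deposited value of -0.438 or -0.437, -0.41 after centring. On array 3, these 6 genes and PGK1 lay between -0.163 and -0.161, about -0.125 after centring. The same 6 genes had no value on array 2. In all, 17 and 20 features lay in these intervals, and the cell wall protein gene CCW12 and YML045W lay in both. With these 13 values set to missing, a choice made after seeing the data, the 6 genes had too few values for a test in that group. The cause of the shared values was not tested.

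Dye orientation also moved with these genes. The fitted difference between arrays with the KOH RNA in Cy5 and in Cy3 was positive for 14 of the 15 lower glycolysis genes, with a median of 0.34 and a range from -0.16 to 0.78. It was positive for 10 of 17 other members and for 47.1% of the 4288 features tested in the wild type at 30 min, with a median of -0.02. Every group held 2 arrays of each orientation and the fit held a dye term. A dye effect cancels in the mean of a group with all 4 values. Without the dye term 2 calls among the 34 genes were lost and none gained: PGK1 in the mutant at 30 min (adjusted p = 0.0939) and PDC5 over time in the wild type (adjusted p = 0.0676), whose changes of -0.34 and -0.80 were the same in both fits.

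**Figure D2:**
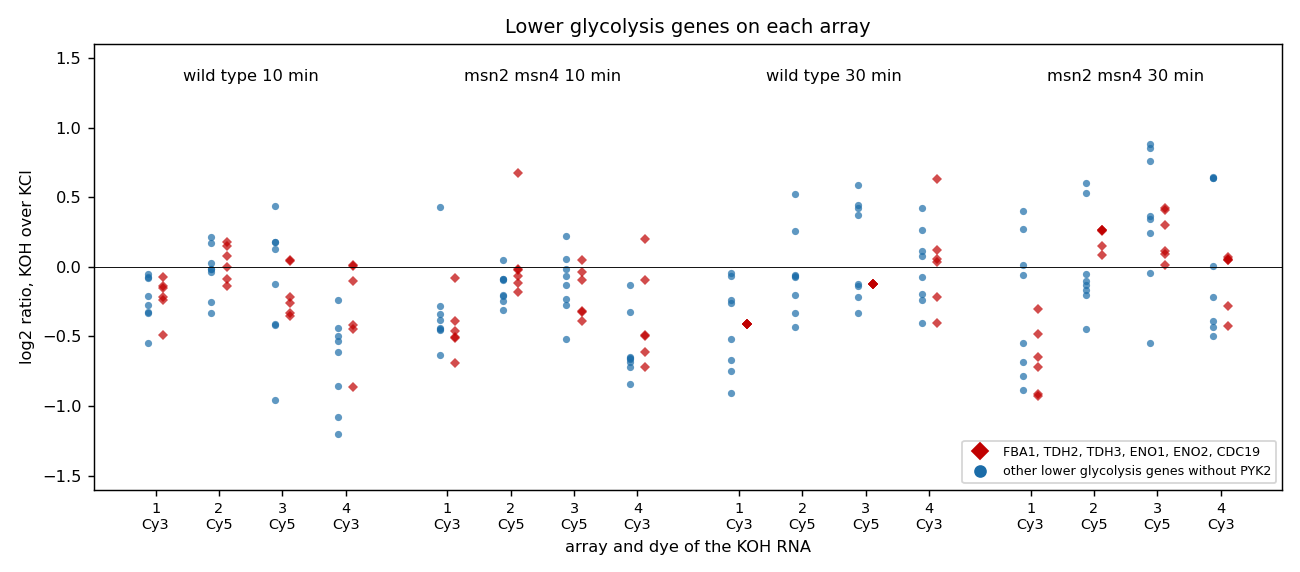
Centred log2 ratios of the lower glycolysis genes other than PYK2 on each array; the horizontal axis gives the array number and the dye of the KOH RNA. Red diamonds are FBA1, TDH2, TDH3, ENO1, ENO2 and CDC19, which sit together at -0.41 on array 1 and near -0.125 on array 3 of the wild type at 30 min and are missing on array 2.

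Pyruvate kinase showed a split between isoenzymes. CDC19 encodes the main enzyme on glucose, activated by fructose 1,6-bisphosphate, and PYK2 (YOR347C) a minor form that is not. PYK2 stood at 1.40, 1.09, 1.74 and 0.96 in the wild type at 10 min and at 1.84, 1.88, 2.56 and 1.27 at 30 min. It rose by 1.30 ± 0.16 (adjusted p = 1.15e-05) and by 1.89 ± 0.17 (adjusted p = 4.56e-07). Mutant PYK2 at 10 min was measured on arrays 3 and 4, at -0.14 and -0.11, below the minimum of 3. By 30 min the mutant stood at 0.84, 0.96, 0.86 and 0.27, a rise of 0.73 ± 0.17 (adjusted p = 0.00323). The lowest wild-type value at 30 min, 1.27, lay above the highest mutant value, 0.96. CDC19 passed in no group: its fitted changes were -0.26 ± 0.13 and -0.24 ± 0.16 (3 arrays) in the wild type and -0.28 ± 0.13 at each time in the mutant. In the mutant at 10 min it passed in the larger slide-number series (-0.44, adjusted p = 0.0404) and without array 4 (-0.43, adjusted p = 0.0312). CDC19 stood at -0.49, -0.14, 0.05 and -0.45 in the wild type and at -0.69, -0.01, -0.32 and -0.09 in the mutant at 10 min. At 30 min it stood at -0.41, -0.12 and -0.41 in the wild type and at -0.93, 0.15, 0.09 and -0.42 in the mutant. PYK2 was the higher of the pair on 12 of 13 arrays.

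**Figure D3:**
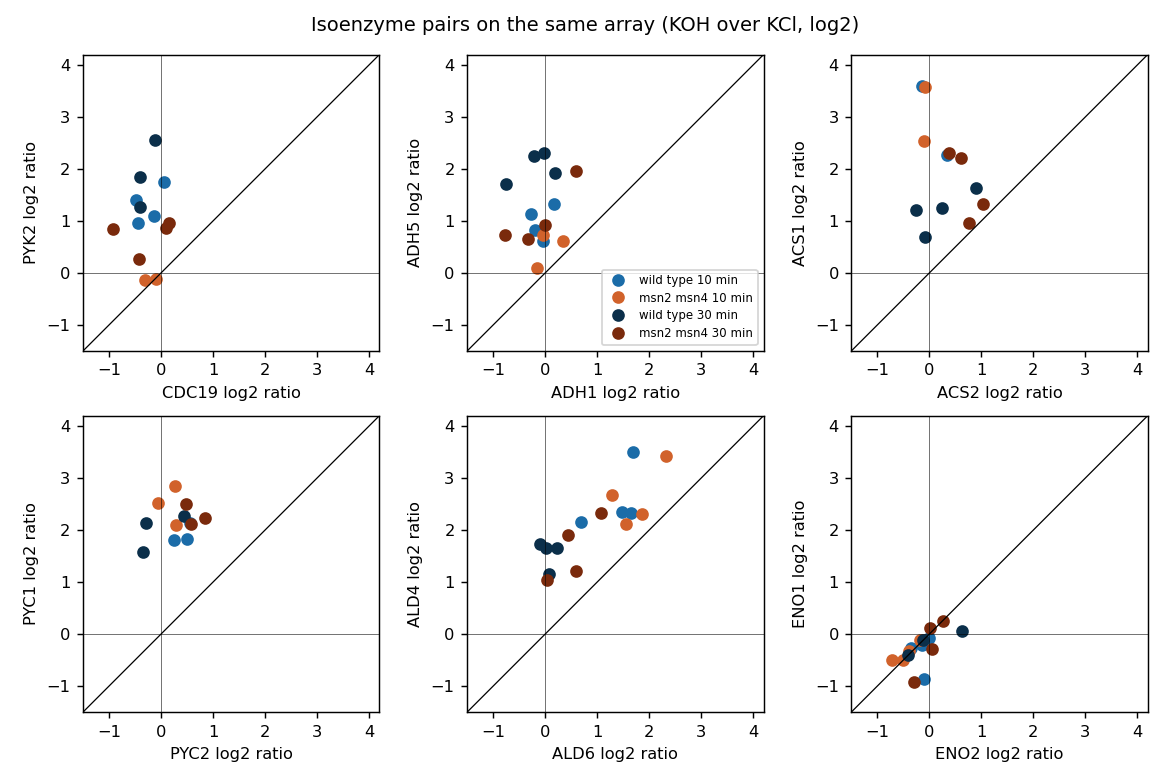
Centred log2 ratios of KOH over KCl of 6 isoenzyme pairs, each point an array on which both genes had a value, coloured by group. The diagonal marks equal change. PYK2, ADH5, ACS1, PYC1 and ALD4 lie above it on nearly all arrays (12 of 13, 15 of 15, 12 of 12, 12 of 12 and 16 of 16), and ENO1 lies above it on 7 of 15 arrays.

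All 3 pyruvate decarboxylases fell in wild-type cells at 30 min, and PDC5 (YLR134W) and PDC6 (YGR087C) also fell in the mutant at both times. Of all features tested, 18.8% fell in the wild type at 30 min, and 17.9% and 19.1% in the mutant at 10 and 30 min. PDC1 (YLR044C) is the main form on glucose, PDC5 is expressed strongly when PDC1 is lost, and PDC6 is a minor form linked to low sulphur. At 30 min wild-type PDC1 stood at -1.83, -0.90, -0.33 and -0.34, PDC5 at -1.62, -1.28, -0.60 and -1.09, and PDC6 at -1.33, -1.23, -0.30 and -0.70. All values lay below 0, and arrays 1 and 2 gave the lowest values of each gene. The changes were -0.85 ± 0.24 for PDC1 (adjusted p = 0.0108), -1.15 ± 0.16 for PDC5 (adjusted p = 2.25e-05) and -0.89 ± 0.26 for PDC6 (adjusted p = 0.0168). Without array 1 the PDC1 change was -0.54 and did not pass (adjusted p = 0.0983). PDC6 was lost without array 1 or 2 (-0.66 and -0.83, adjusted p = 0.0974 and 0.0562) and in the larger slide-number series (-0.90, adjusted p = 0.069).

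Mutant PDC5 at 30 min stood at -1.06, -0.77, -0.28 and -1.12, a fall of -0.81 ± 0.16 (adjusted p = 0.000856). PDC6 stood at -0.86, -0.75, -2.70 and -0.83, so array 3 was far below the other 3, and its change was -1.28 ± 0.27 (adjusted p = 0.00226). Without array 3 it was -0.82 and still passed. PDC1 gave -1.30, -0.63, -0.37 and 0.02 and did not pass (-0.57 ± 0.25, adjusted p = 0.0732). It passed with the slide series as a block (-0.57, adjusted p = 0.00726), in the larger series alone (-0.90, adjusted p = 0.00307), without array 4 of that group (-0.83, adjusted p = 0.0205) and without array 1 of the wild type at 30 min (adjusted p = 0.0493).

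At 10 min PDC1 stood at -0.61, -0.24, 0.46 and 0.01 in the wild type and at -0.84, -0.06, -0.48 and 0.20 in the mutant, and passed in neither. PDC5 stood at -0.39, -0.17, 0.36 and -1.21 in the wild type, which did not pass, and at -0.77, -0.24, -0.30 and -0.88 in the mutant, which did (-0.55 ± 0.16, adjusted p = 0.0112). The mutant PDC5 call held in 10 of 16 pairings of opposite-dye arrays. PDC6 stood at -0.48, -1.12, -1.18 and -0.94 in the mutant, a fall of -0.93 ± 0.26 (adjusted p = 0.0133). That PDC6 call was lost in the larger series (-0.87, adjusted p = 0.0713). Wild-type PDC6 had 1 value at that time, -0.70. Every value of PDC6 in any group was negative.

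Among the alcohol dehydrogenases ADH5 (YBR145W), ADH3 (YMR083W) and ADH4 (YGL256W) rose at 30 min and ADH1 (YOL086C) did not pass. Of all features tested at 30 min, 19.2% rose in the wild type and 22% in the mutant. ADH1 makes ethanol in fermentation, ADH2 (YMR303C) oxidises it and is glucose-repressed, ADH3 is mitochondrial, ADH4 is induced by zinc limitation, and ADH5 is a minor form. ADH5 stood at 0.82, 1.32, 0.62 and 1.12 in the wild type at 10 min and at 1.72, 1.92, 2.31 and 2.26 at 30 min, with no overlap between the times. It rose by 0.97 ± 0.17 (adjusted p = 0.000284) and by 2.05 ± 0.18 (adjusted p = 2.5e-07). Mutant arrays at 10 min gave 0.72, 0.61 and 0.09 on 3 arrays, which did not pass (0.42 ± 0.20, adjusted p = 0.121) except without array 3 of the mutant at 30 min (0.44, adjusted p = 0.0475). By 30 min mutant arrays gave 0.73, 0.93, 1.95 and 0.66, a rise of 1.07 ± 0.18 (adjusted p = 0.000264). Array 3 of that group, at 1.95, lay within the wild-type range, and the other 3 lay below it.

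ADH3 stood at 0.25, 0.96, 0.58 and 0.42 in the wild type and 0.25, 0.71, 1.15 and 0.24 in the mutant at 30 min. It rose by 0.55 ± 0.13 (adjusted p = 0.00358) and by 0.59 ± 0.13 (adjusted p = 0.00242). At 10 min ADH3 stood at 0.26, 0.55, 0.08 and -0.40 and at -0.05, 0.22, 0.50 and -0.18, and did not pass. ADH4 stood at 0.98, 0.74 and 0.63 on 3 arrays of the wild type and at 1.16, 0.69, 0.96 and 1.08 in the mutant at 30 min. The rises were 0.83 ± 0.16 (adjusted p = 0.00104) and 0.98 ± 0.13 (adjusted p = 0.000107). At 10 min ADH4 had 2 wild-type values of opposite sign, -0.28 and 0.52, and 3 mutant values, 0.09, -0.33 and -0.16.

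ADH1 had fitted changes from -0.20 ± 0.14 to -0.09 ± 0.14 over the 4 groups. Its values at 10 min were -0.19, 0.16, -0.05 and -0.28 in the wild type and -0.50, -0.03, 0.34 and -0.15 in the mutant. At 30 min they were -0.76, 0.20, -0.02 and -0.22 and then -0.78, 0.00, 0.60 and -0.33, so ADH1 lay on both sides of 0 in each group. ADH2 was measured on 1 array per group, the array of the smaller slide-number series, at -0.51, -0.29, -0.12 and -0.30, and was not tested. ADH5 exceeded ADH1 on all 15 arrays with both.

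All 4 aldehyde dehydrogenases tested in the wild type at 10 min rose, as did all 3 tested in the mutant, and 2 of 5 and 4 of 5 rose at 30 min. Of all features tested, 21.8%, 18.6%, 19.2% and 22% rose in these groups. ALD4 (YOR374W) and ALD5 (YER073W) encode mitochondrial forms, ALD6 (YPL061W) the cytosolic form that makes acetate during fermentation, and ALD2 (YMR170C) and ALD3 (YMR169C) cytosolic forms induced by stress. ALD4 stood at 2.35, 2.34, 3.50 and 2.15 in the wild type at 10 min, at 2.11, 2.30, 3.42 and 2.68 in the mutant, at 1.65, 1.66, 1.74 and 1.15 in the wild type at 30 min, and at 1.04, 1.20, 2.32 and 1.91 in the mutant. Its changes were 2.58 ± 0.22, 2.63 ± 0.22, 1.55 ± 0.22 and 1.62 ± 0.22 in these groups. The adjusted p-values were 6.92e-08, 7.84e-08, 3.22e-05 and 3.04e-05. ALD4 exceeded ALD6 on all 16 arrays.

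ALD6 rose at 10 min in both strains. It stood at 1.48, 1.66, 1.69 and 0.70 in the wild type and at 1.55, 1.87, 2.32 and 1.29 in the mutant, rises of 1.38 ± 0.15 (adjusted p = 1.28e-06) and 1.76 ± 0.15 (adjusted p = 1.02e-07). At 30 min the wild type gave 0.02, 0.22, -0.10 and 0.07, which did not pass. The mutant at 30 min gave 0.04, 0.59, 1.07 and 0.44, a rise of 0.54 ± 0.15 (adjusted p = 0.0106). Without array 3 it was 0.43 and did not pass (adjusted p = 0.0677).

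ALD5 stood at 0.83, 0.79, 0.50 and 1.16 in the wild type and at 1.10, 0.90, 1.00 and 1.06 in the mutant at 10 min. The rises were 0.82 ± 0.14 (adjusted p = 0.000165) and 1.02 ± 0.14 (adjusted p = 3.15e-05). At 30 min it stood at 0.43, 0.03, 0.32 and 0.61 in the wild type (0.35 ± 0.14, adjusted p = 0.0677) and at 0.66, 0.50, 1.42 and 1.19 in the mutant (0.94 ± 0.14, adjusted p = 8.61e-05). Wild-type ALD5 at 30 min passed when arrays were centred on the features measured on all 16 arrays (0.42, adjusted p = 0.0155), with quantile or scale normalization (0.35 and 0.36, adjusted p = 0.0498 and 0.0424) and without array 3 of the mutant at 30 min (adjusted p = 0.0333).

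ALD3 gave 2.66, 3.94, 1.80 and 1.23 in the wild type at 10 min, the widest spread of any of the 34 genes that rose there. Its change was 2.41 ± 0.31 (adjusted p = 1.68e-05). Mutant ALD3 at 10 min was measured on arrays 3 and 4, at -0.08 and -0.11, below the minimum of 3. At 30 min the values were 0.50, 0.26, 0.52 and 0.27 in the wild type and 0.85, 0.83, -0.40 and -0.11 in the mutant, and neither passed. ALD2, its near copy, had 2 values in each group at 10 min, 0.53 and 1.69 in the wild type and -0.24 and 0.44 in the mutant. At 30 min ALD2 stood at 0.69, 0.98, 0.89 and 0.85 in the wild type (0.85 ± 0.18, adjusted p = 0.00241) and at 0.65, 0.76, 0.15 and 0.57 in the mutant (0.53 ± 0.18, adjusted p = 0.0351). The mutant call was lost without array 1, 2 or 4 (0.42 to 0.54, adjusted p from 0.0705 to 0.131) and in 3 of 11 other settings (adjusted p from 0.0629 to 0.0889).

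ACS1 (YAL054C), the acetyl-CoA synthetase repressed by glucose, rose in both strains at 30 min. It stood at 0.69, 1.21, 1.63 and 1.24 in the wild type (1.19 ± 0.27, adjusted p = 0.00338) and at 2.31, 2.22, 1.32 and 0.96 in the mutant (1.70 ± 0.27, adjusted p = 0.000407). Only arrays 3 and 4 held it at 10 min, at 2.27 and 3.59 in the wild type and 2.54 and 3.57 in the mutant. With a minimum of 2 arrays ACS1 rose in both, by 2.93 ± 0.38 (adjusted p = 3.82e-05, 21.4% of 3201 features called higher) and 3.06 ± 0.38 (adjusted p = 8.21e-05, 16.4% of 4234). ACS2 (YLR153C), needed on glucose, stood at 0.37, 0.60, 1.03 and 0.76 in the mutant at 30 min, a rise of 0.69 ± 0.16 (adjusted p = 0.00351). Wild-type ACS2 at 30 min stood at -0.08, -0.25, 0.89 and 0.24. At 10 min it stood at -0.08, 0.34 and -0.14 on 3 wild-type arrays and at -0.08, -0.34, -0.11 and -0.08 in the mutant. ACS2 passed in none of these 3 groups. ACS1 exceeded ACS2 on 12 of 12 arrays.

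PYC1 (YGL062W), a cytosolic pyruvate carboxylase that supplies oxaloacetate, rose in every group. It stood at 2.14, 1.83, 2.17 and 1.82 in the wild type at 10 min and at 2.85, 2.52, 2.41 and 2.09 in the mutant. At 30 min it stood at 1.58, 2.13, 2.81 and 2.28 and at 2.12, 2.50, 2.70 and 2.24. The strains overlapped at both times. The changes were 1.99 ± 0.16, 2.47 ± 0.16, 2.20 ± 0.16 and 2.39 ± 0.16 in the wild type and mutant at 10 min and the wild type and mutant at 30 min, with adjusted p from 2.51e-09 to 2.99e-08. PYC2 (YBR218C), its near copy, stood at 0.57, 0.47 and 0.84 on 3 arrays of the mutant at 30 min, a rise of 0.59 ± 0.17 (adjusted p = 0.0143). In the other groups it gave 0.56, 0.50 and 0.24, then 0.27, -0.06 and 0.28, then -0.34, -0.29 and 0.44, and did not pass. PYC1 exceeded PYC2 on 12 of 12 arrays, by at least 1.33.

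FBP1 (YLR377C) and PCK1 (YKR097W), which encode the gluconeogenic enzymes fructose-1,6-bisphosphatase and phosphoenolpyruvate carboxykinase, were measured on few arrays. FBP1 had 3 values in the wild type at 30 min, -0.41, 0.14 and -0.12, and did not pass (-0.14 ± 0.21, adjusted p = 0.623). Mutant FBP1 at 30 min had 2 values, -1.90 and -1.20, and fell with a minimum of 2 arrays (-1.55 ± 0.25, adjusted p = 0.00306, 20.6% of 4718 features called lower). With that minimum the FBP1 strain difference at 30 min, -1.40 ± 0.33, did not pass (adjusted p = 0.0735). At 10 min each strain had 1 FBP1 value, -0.18 in the wild type and 0.02 in the mutant. PCK1 had 1 value in each of 3 groups, 0.28 (wild type) and -0.50 (mutant) at 10 min and -2.17 for mutant cells at 30 min. The 3 mutant values at 30 min were the lowest of these 2 genes in any group.

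The strain differences were few. At 10 min none of the 25 genes tested differed by limma, against 0.0847% of 2361 features called higher in the mutant and 0.889% called lower. PYC1 was the 1 gene of these with an unadjusted limma p below 0.05 (0.48 ± 0.22, adjusted p = 0.465), against 10.6% of the features. PYK2 and ALD3 were not among the 25, since 2 mutant arrays held each. With a minimum of 2 arrays both were lower in the mutant at 10 min, PYK2 by -1.42 ± 0.28 (adjusted p = 0.0157) and ALD3 by -2.50 ± 0.54 (adjusted p = 0.0311), the 2 called of 29 genes, against 1.35% of 3113 features called lower. The 2 mutant values of each gene, on which that fit rests, lay below all 4 wild-type values. How many of all features were separated in this way was not counted. At 30 min 1 of 31 passed, PYK2, lower in the mutant by -1.15 ± 0.23 (adjusted p = 0.0351), against 0.729% of 3978 features higher and 0.277% lower. The PYK2 difference was lost without any of 7 arrays (-1.26 to -1.11, adjusted p from 0.0549 to 0.145), namely arrays 1 and 2 of the wild type at 30 min, arrays 1, 2 and 3 of the mutant at 30 min, and arrays 3 and 4 of the mutant at 10 min. It was also lost in 3 of 11 other settings (adjusted p from 0.0534 to 0.14). It passed in 2 of 16 ways of pairing opposite-dye arrays into replicates.

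In all, 8 of the 31 genes had an unadjusted p below 0.05 at 30 min, against 20.3% of the 3978 features. ADH5 was lower in the mutant by 0.98 (-0.98 ± 0.25, 95% interval -1.51 to -0.45, adjusted p = 0.0549). PFK1 and PFK2 were higher by 0.71 ± 0.22 (adjusted p = 0.0834) and 0.77 ± 0.23 (adjusted p = 0.0772). ALD5 was higher by 0.60 ± 0.20, PYC2 by 0.69 ± 0.23, ACS2 by 0.49 ± 0.23 and ALD6 by 0.48 ± 0.21, with adjusted p from 0.112 to 0.236. None of these 7 passed, and a miss does not show that the strains act alike. ADH5 did pass with quantile or scale normalization (-1.37 and -1.13, adjusted p = 0.018 and 0.0491), with features on all 4 arrays (adjusted p = 0.0398) and without array 3 of the mutant (-1.25, adjusted p = 0.0389). Without array 3 or 4 of the wild type PFK1 (0.83 and 0.91) and PFK2 (0.94 in each) passed, with adjusted p from 0.0285 to 0.0417, and ACS2 passed without array 3 (0.72, adjusted p = 0.0486).

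**Figure D4:**
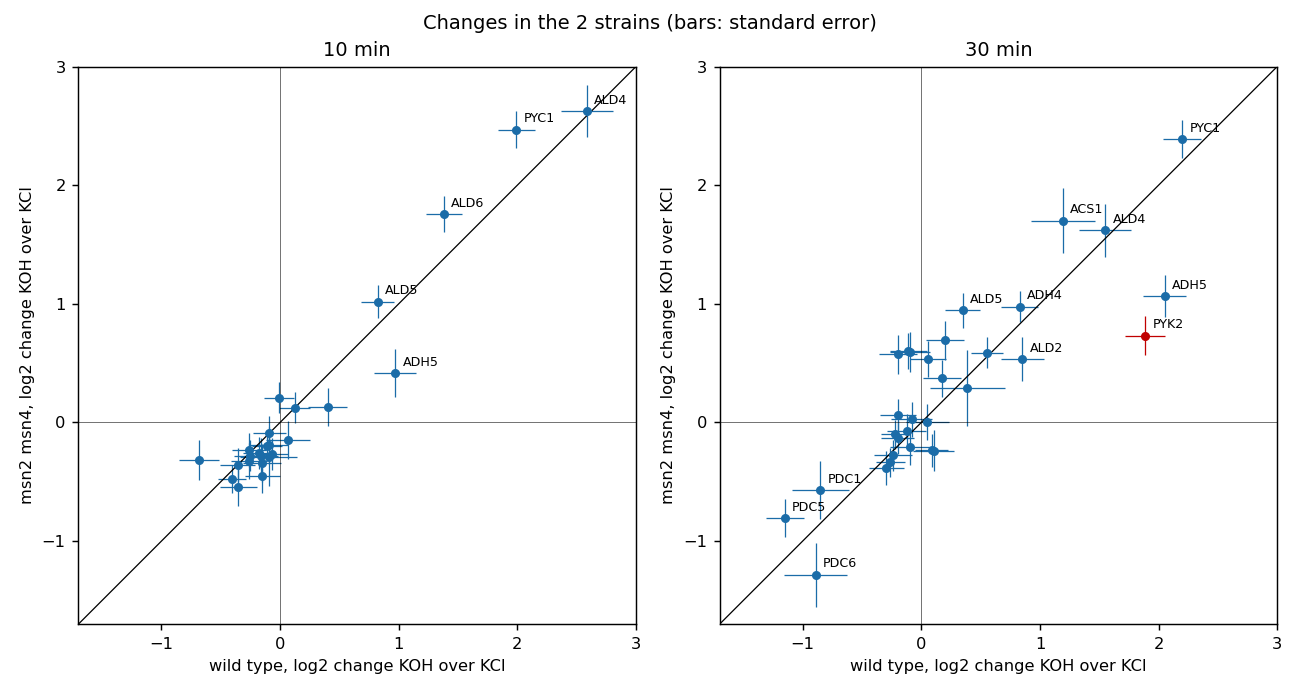
Fitted log2 change of KOH over KCl in the wild type (horizontal) and the msn2 msn4 mutant (vertical), at 10 and 30 min, for the genes tested in both; bars are standard errors and the line marks equal change. PYK2, in red, is the gene whose strain difference passed at 30 min (-1.15), and ADH5 lies on the same side of the line without passing.

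Time differences were called for 6 genes in each strain. Wild-type ADH5 was higher at 30 min than at 10 min (1.08 ± 0.25, adjusted p = 0.00549), and so was TPI1 (0.79 ± 0.24, adjusted p = 0.0268). Lower at 30 min were ALD3 (-2.02 ± 0.44, adjusted p = 0.00426), ALD6 (-1.33 ± 0.21, adjusted p = 0.000289), ALD4 (-1.03 ± 0.31, adjusted p = 0.0232) and PDC5 (-0.80 ± 0.22, adjusted p = 0.0155). In all, 2 of 27 genes were higher and 4 lower, against 6.83% and 13.1% of 2607 features. Thus 3 of the 4 aldehyde dehydrogenases tested were lower at 30 min, and the fourth, ALD5, did not pass (-0.47 ± 0.20, adjusted p = 0.105). TPI1 was lost without any of 5 arrays (0.62 to 0.78, adjusted p from 0.0555 to 0.0944), namely arrays 3 and 4 at 10 min and arrays 1, 2 and 4 at 30 min. It was also lost in the larger series (0.62, adjusted p = 0.154) and with the compared groups alone (0.79, adjusted p = 0.0702). PDC5 was lost without array 3 at 10 min or array 2 at 30 min (-0.65 and -0.64, adjusted p = 0.0589 and 0.063). The PDC5 call was also lost without a dye term and with the compared groups alone (-0.80 in each, adjusted p = 0.0676 and 0.0755). ALD4 was lost without array 3 at 10 min or array 2 or 4 at 30 min (adjusted p from 0.0546 to 0.0873), in the larger series (adjusted p = 0.058), and with quantile normalization, where it was -0.19 (adjusted p = 0.657). Of the 6 calls, ALD3 and ALD6 held in all 16 pairings of opposite-dye arrays, ADH5 in 14, ALD4 in 6, PDC5 in 5 and TPI1 in 4. PDC1, which did not pass over time, did so with the slide series as a block (-0.75, adjusted p = 0.0161) and in the larger series (-0.89, adjusted p = 0.0243). PYK2 passed with quantile or scale normalization (1.19 and 0.64, adjusted p = 0.00204 and 0.0319), PYC1 with quantile normalization (1.10, adjusted p = 0.000846), and ACS1 with a minimum of 2 arrays (-1.74 ± 0.46, adjusted p = 0.017, 12.6% of 3135 features called lower). With that minimum wild-type ADH4 over time was 0.71 ± 0.24 and did not pass (adjusted p = 0.0567).

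In the mutant PFK1 (0.93 ± 0.22, adjusted p = 0.00549), PFK2 (0.91 ± 0.23, adjusted p = 0.00838), ADH4 (1.06 ± 0.20, adjusted p = 0.00219) and ACS2 (0.84 ± 0.22, adjusted p = 0.0148) were higher at 30 min. ALD6 (-1.22 ± 0.21, adjusted p = 0.000469) and ALD4 (-1.01 ± 0.31, adjusted p = 0.03) were lower. These were 4 of 27 higher and 2 lower, against 6.07% and 10.1% of 2934 features. With a minimum of 2 arrays, mutant ACS1 over time was -1.36 ± 0.46 and did not pass (adjusted p = 0.0767). Nor did mutant PYK2 over time, at 0.86 ± 0.29 (adjusted p = 0.0631). ALD4 was lost without array 3 or 4 at 10 min or array 1 or 2 at 30 min (-0.91 to -0.78, adjusted p from 0.0739 to 0.103), and with quantile normalization, the larger series or the compared groups alone (-1.09 to -0.77, adjusted p from 0.0586 to 0.0613). Of the 6 calls, ALD6 held in all 16 pairings, ADH4 in 15, PFK1 and PFK2 in 8 each, ALD4 in 6 and ACS2 in 5. ALD6 was thus lower at 30 min in both strains in every pairing and with any single array left out, whereas the ALD4 calls did not hold in all of these. Whether the time course itself differed between strains was not tested.

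**Figure D5:**
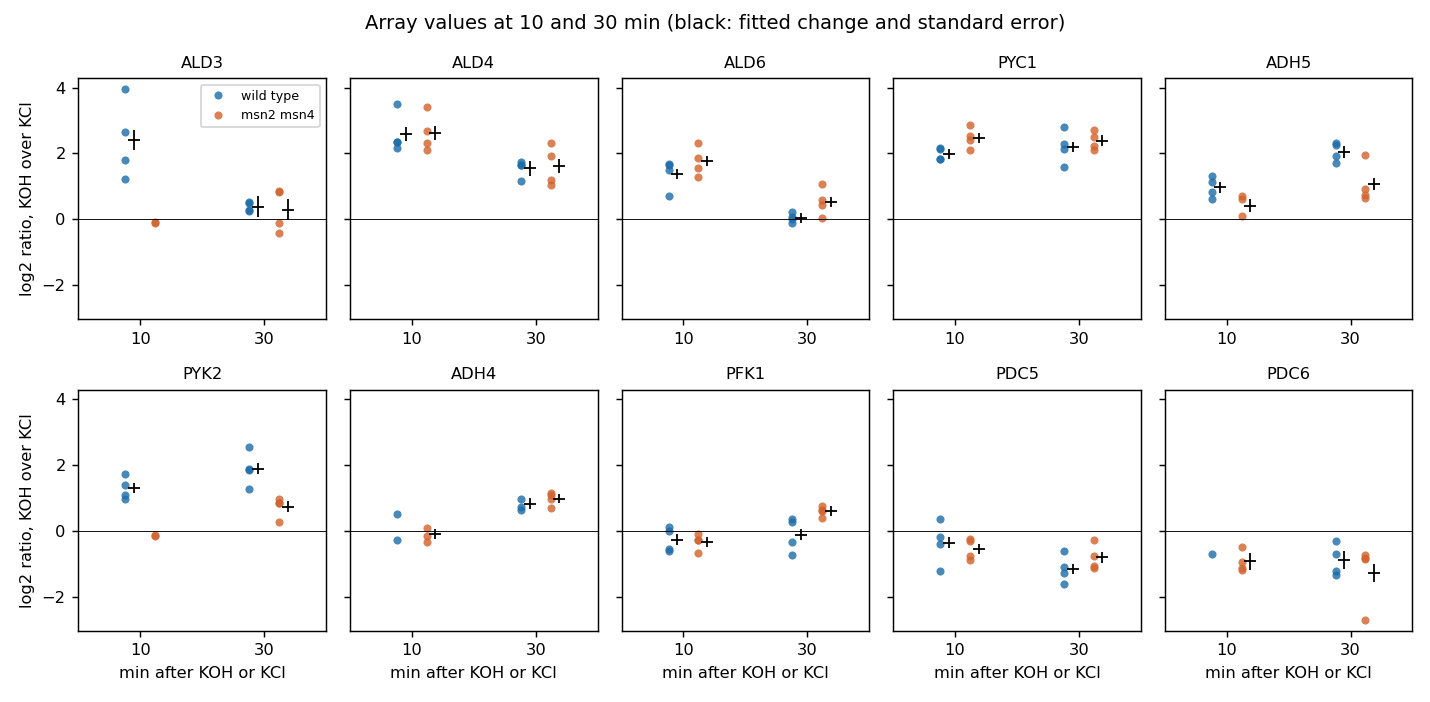
Centred log2 ratios at 10 and 30 min for 10 genes, with wild-type arrays in blue and msn2 msn4 arrays in orange; black marks give the fitted change and its standard error where tested. ALD6 and ALD4 are lower at 30 min in both strains, ALD3 in the wild type, and ADH5 is higher at 30 min in the wild type.

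Genes of neighbouring pathways were counted in 8 lists. The counts stand against 21.8%, 18.6%, 19.2% and 22% of all features that rose, and 20.9%, 17.9%, 18.8% and 19.1% that fell, in the wild type and mutant at 10 min and the wild type and mutant at 30 min. All 4 glucose phosphorylation genes tested rose at 10 min in both strains, with medians of 2.45 and 1.37: HXK1 (hexokinase) by 2.88 and GLK1 (glucokinase) by 2.71 in the wild type, and EMI2 by 1.87 and GLK1 by 1.76 in the mutant. At 30 min 2 of 4 rose in each strain, led by GLK1 (1.79 and 0.97). HXK1 and GLK1 were lower in the mutant at 10 min, by -1.92 ± 0.21 (adjusted p = 3.29e-05) and -0.94 ± 0.22 (adjusted p = 0.0374). Calls in these 8 lists were not examined with arrays left out, in pairings or in other settings. Estimates in these lists can rest on 3 arrays of a group, the minimum for a test. The medians over all features at 10 min were -0.04 and 0.01. No other gene of the 8 lists of neighbouring genes passed between strains.

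Among 8 glyoxylate cycle and carbon uptake genes, 4 of 7 tested rose in the wild type at 10 min, led by JEN1 (a lactate and pyruvate permease, 2.06) and ICL1 (isocitrate lyase, 1.62). The numbers were 1 of 3 in the mutant at 10 min (ADY2, an acetate transporter, 1.08), 2 of 7 in the wild type at 30 min (MDH2, malate dehydrogenase, 0.99, and ICL1, 0.81) and 1 of 7 in the mutant at 30 min (MDH2, 0.44). None fell. Their medians were 1.28, 0.67, 0.75 and 0.25, beside -0.04, 0.01, 0.02 and 0.02 over all features tested in the 4 groups.

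Of the genes listed for the GID ubiquitin ligase, which marks gluconeogenic enzymes for degradation on glucose, 4 of 5, 5 of 7, 6 of 8 and 5 of 8 tested rose in the wild type and mutant at 10 min and the wild type and mutant at 30 min. VID28 led at 10 min (1.67 and 1.02), UBC8 (0.98) in the wild type and VID24 (0.74) in the mutant at 30 min. Of the genes for pyruvate entry into mitochondria and pyruvate dehydrogenase, 1 of 7, 2 of 7, 2 of 7 and 5 of 8 rose, beside 21.8%, 18.6%, 19.2% and 22% of all features. MPC2, a subunit of the mitochondrial pyruvate carrier, rose by 1.27 in the mutant at 10 min and by 1.20 and 1.28 at 30 min. None of either list fell. The medians of the GID genes were 0.70, 0.54, 0.55 and 0.50 in the same order, and those of the pyruvate genes 0.27, 0.16, 0.29 and 0.37.

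Few regulator genes passed. Of 6 regulators of glycolytic genes, GCR1, an activator of glycolytic genes, fell in the wild type at 10 min (-0.56, 1 of 4 tested) and RAP1 fell in the wild type at 30 min (-0.74, 1 of 5), whereas RAP1 (0.54) rose in the mutant at 10 min and PDC2, a regulator of PDC genes, rose in the mutant at 30 min (0.55), 1 of 5 tested each. Of 7 regulators of glucose-repressed genes, none of 1 tested passed in the wild type at 10 min. ADR1, an activator of glucose-repressed genes, rose at 30 min in the wild type (0.81, 1 of 3 tested) and the mutant (1.23, 1 of 5). MIG1, a glucose repressor, rose by 1.09 and ERT1 fell by 0.51 (-0.51) in the mutant at 10 min, of 3 tested. Of 4 fructose 2,6-bisphosphate genes, PFK27 fell in the wild type at 10 min (-0.35, the only one tested) and in the mutant at 30 min (-0.40), and FBP26 rose at 30 min (0.92 and 0.98). YLR345W passed at 30 min in both strains too, making 2 of 4 higher in each, and none of 1 tested passed in the mutant at 10 min. Of 9 other alcohol and aldehyde enzymes, 3 of 7, 2 of 6, 3 of 7 and 2 of 8 rose, and none fell. BDH2 (4.15) and HFD1 (1.08) led in the wild type at 10 min, BDH1 (1.04) and HFD1 (0.55) in the mutant, ARI1 and HFD1 (0.94 each) in the wild type at 30 min and HFD1 (0.74) and ARI1 (0.54) in the mutant. Medians of the 6 regulators of glycolytic genes were 0.04, 0.10, -0.14 and 0.12 in the 4 groups, those of the 7 other regulators -0.02, -0.06, 0.15 and -0.32, those of the fructose 2,6-bisphosphate genes -0.35, -0.20, 0.38 and 0.37, and those of the 9 alcohol and aldehyde enzymes 0.11, 0.14, 0.23 and 0.00.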

How the data were processed

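The authors deposited 1 log ratio per feature and array, used here as log2 of KOH over KCl; base and direction are not stated in the files or labels. Per the labels' protocols, 8 µg of total RNA was primed with oligo(dT) and labelled indirectly with Cy3 or Cy5. The sources used here name no scanner, background or normalization method, nor the filter that left cells empty. The number of arrays limits the precision.

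Each array was centred on its median. limma 3.58.1 under R 4.3.3 estimated a mean for each group and a dye effect for each gene across all 16 arrays, with two-sided tests. The fit was tested on simulated data. Members and gene lists were chosen with earlier results of these data known. Array values are printed for genes that passed in at least 1 comparison and for their isoenzymes, and at most 2 genes per related list and comparison are named, with YLR345W named beyond that after its values were seen. Alternatives changed centring, normalization, dye term, slide-number series, filter, groups fitted, arrays left out, and the pairing of opposite-dye arrays (16 ways). A promoter motif search was planned and not made, because no promoter sequences were given. Number of per-sample columns not used: 0.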

Additional observations from a re-analysis of the deposited data

Results flagged for a closer look

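Of 102 gene and group combinations with 4 values, 5 held an array far from the other 3 by Dixon's ratio, and chance flags about 1 in 20. PYK2 stood at 0.27 on array 4 of the mutant at 30 min (others 0.84 to 0.96). PDC6 stood at -2.70 on array 3 of the same group (others -0.86 to -0.75). ALD4 stood at 3.50 on array 3 of the wild type at 10 min (others 2.15 to 2.35) and at 1.15 on array 4 of the wild type at 30 min (others 1.65 to 1.74). ACS2 stood at -0.34 on array 2 of the mutant at 10 min (others -0.11 to -0.08).

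Tests of a difference between groups called PYK2 between strains at 30 min (-1.15). Between times in the wild type they called TPI1 (0.79), PDC5 (-0.80), ADH5 (1.08), ALD3 (-2.02), ALD4 (-1.03) and ALD6 (-1.33). Between times in the mutant they called PFK1 (0.93), PFK2 (0.91), ADH4 (1.06), ALD4 (-1.01), ALD6 (-1.22) and ACS2 (0.84).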

How the results depend on the processing

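No paired analysis was possible because the labels give no replicate numbers that tie arrays across groups. Of 5916 single-gene results under the alternatives, 5789 stayed on the same side of the threshold, 80 no longer passed and 47 newly passed. Of those that passed in either fit, 0 reversed in direction. Directions were not compared where neither fit passed. Averaging opposite-dye arrays under 16 pairings gave at the lowest 5 genes called in the mutant at 10 min (8 as reported), 9 in the mutant at 30 min (18), 2 for time in the wild type (6) and 1 for time in the mutant (6). ENO2 in the mutant at 10 min and ALD2 in the mutant at 30 min passed in none of the pairings. Fitting the compared groups alone gave 10 genes in the mutant at 30 min, without PGK1, GPM2, PFK1, PFK2, ADH3, ALD2, ALD6 and PYC2, and the larger slide-number series gave 3 for time in the mutant. For the strain difference at 30 min (1) the count was 0 when centring on features measured on all 16 arrays, with the larger series or with the compared groups alone, 2 with quantile or scale normalization or with features on all 4 arrays, and 0 to 3 over the pairings. Leaving out each array gave 8 to 10 and 8 to 12 genes in the wild type at 10 and 30 min, 7 to 9 and 15 to 18 in the mutant, 0 to 0 and 0 to 4 for the strain differences at 10 and 30 min, and 3 to 7 and 4 to 6 for time in the wild type and mutant. With quantile normalization ALD4 over time in the wild type was -0.19 (adjusted p = 0.657) and ADH5 was 1.64; the cause was not tested. Over all features, the counts called ranged over the alternatives other than the pairings from 682 to 1343 (1140 as reported) and 1134 to 1724 (1630) in the wild type at 10 and 30 min and from 609 to 1339 (1109) and 810 to 1928 (1742) in the mutant. They ranged from 7 to 47 (23) and 0 to 269 (40) for the strain differences, and from 351 to 635 (519) and 305 to 527 (473) for time. With a minimum of 2 arrays per group, 2 genes were called between strains at 10 min (0 as reported). That minimum and setting the shared values to missing were chosen after seeing the data. The background correction could not be varied, since only ratios were used, and 4 arrays per group limit the precision.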
